A study of Sus scrofa with 12 samples.

Results

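Among the 63022 Ensembl pig transcripts listed in the RNA files, 7 that stood much higher in the testis of Duroc pigs than in that of Large white pigs are described here. They were named one by one from earlier results on these same libraries, so the breed difference itself chose them, and every value that compares the breeds is a description without a test. The RNA was rRNA-depleted total RNA of testis from males of 12 months, sequenced with paired ends. One group holds 3 libraries of Western Duroc boars and the other 3 libraries of Large white boars, with no treatment or allele named for either. Whether the libraries of a breed are separate boars is not stated in the labels, so the spread between libraries may in part be technical. The small RNA libraries of the series list miRNAs, hold none of these transcripts and were not used.

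The testis holds germ cells at every stage from spermatogonia to spermatids, supported by Sertoli cells within the tubules and by Leydig, peritubular, vascular and immune cells between them. One gene often gives several transcripts that share exons, through alternative start sites, splicing and ends, and germ cells are known for their many transcript forms. Short reads from shared exons can be assigned to more than one of these forms, so an estimate for a transcript depends on how reads were divided among its relatives. In tissue RNA, more cells of a type and more RNA per cell cannot be told apart. The tables used here do not pair Ensembl transcripts with genes, so the 7 are given by identifier, without a symbol, position or sequence, and the tissue label was not checked against cell type markers.

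The libraries held between 17922861 and 25520578 estimated reads. A transcript entered the comparison with all others when it had at least 1 TPM (a relative level scaled to transcript length) in at least 3 of the 6 libraries, which 24227 did. The Duroc libraries varied more among themselves than the Large white libraries. The median coefficient of variation (the SD as a percent of the mean) was 45.3% in Duroc and 17.0% in Large white over the tested transcripts. With 1 added to each TPM, 2945 transcripts differed over 4-fold between Duroc libraries 1 and 2, and 1189 between Duroc libraries 2 and 3. Duroc libraries 1 and 3 differed so in 540. Between a pair of Large white libraries, 206 to 269 did so. Against a Large white library, 327 to 377 differed over 4-fold in Duroc library 2, 1032 to 1089 in library 3 and 2276 to 2492 in library 1. Duroc libraries 1 and 3 thus stood further from Large white than library 2 did, and also differed from each other. The ratio of Duroc library 2 to Large white is given beside the ratio of the means.

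All 7 transcripts passed the filter, 3 of them with at least 1 TPM in every library and 4 through the Duroc libraries only, with less than 1 TPM in each Large white library. Of all that passed, 1.07% did so through the Duroc libraries only and 0.52% through the Large white libraries only. Together they took 0.0931%, 0.0537% and 0.0750% of the estimated reads in Duroc libraries 1 to 3, against 0.00361%, 0.00297% and 0.00331% in the Large white libraries. The breeds did not overlap in any of the 7, with all Duroc libraries the higher, which was so for 8.4% of the tested transcripts, and 9.66% had all Duroc libraries the lower. The mean TPM was over 4-fold higher in Duroc in all 7, beside 3.05% of the tested transcripts. Each Duroc library was over 4-fold above the highest Large white library in all 7, as in 0.219% of the tested transcripts, which is 53 transcripts with these 7 among them. Duroc library 2 taken alone lay above the highest Large white library in all 7, beside 24.4% of the tested transcripts, and over 4-fold above it in all 7, beside 0.355%. As the 7 were chosen on this contrast, these shares are given for context only.

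**Figure D1:**
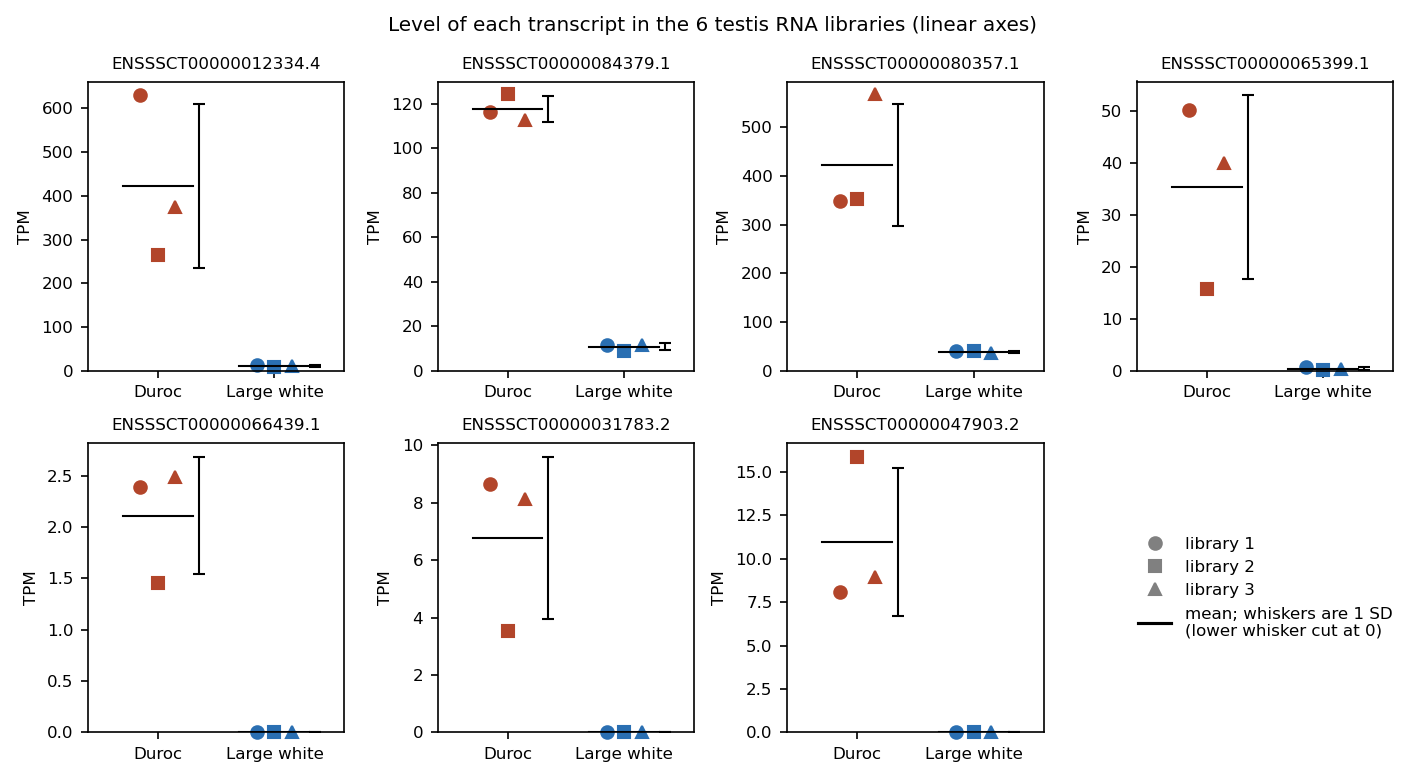
TPM (vertical axes, linear, a different range in each panel) of the 7 transcripts in the Duroc and Large white testis RNA libraries. Points are libraries, black lines are breed means and whiskers are 1 SD. In each panel the 3 Duroc points lie above the 3 Large white points.

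In 3 transcripts both breeds had at least 141 estimated reads in each library, and their mean Duroc level was 10.7 to 37.4 times the Large white level. ENSSSCT00000012334.4, of 1020 bases, had 630, 265 and 374 TPM in Duroc libraries 1 to 3 and 13.2, 9.62 and 11.1 TPM in Large white libraries 1 to 3. The lowest Duroc library, library 2, was still 20.1 times the highest Large white library. The breed means were 423 ± 187 and 11.3 ± 1.79 TPM (SD, n = 3 each), a ratio of 37.4. The ratio between 1 Duroc and 1 Large white library ran from 20.1 to 65.5, and the highest library was 2.38 times the lowest within Duroc and 1.37 times within Large white. Duroc library 2 alone was 23.4 times the Large white mean. The values rest on 3325 to 9692 estimated reads in Duroc and 141 to 204 in Large white.

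ENSSSCT00000084379.1, of 1854 bases, had 116, 124 and 112 TPM in Duroc and 11.8, 8.99 and 11.8 TPM in Large white. It was the most even of the 7 within Duroc in TPM, where its highest library was 1.10 times its lowest. The means were 118 ± 5.97 and 10.9 ± 1.61 TPM (SD, n = 3 each), a ratio of 10.8, and single libraries differed 9.52-fold to 13.8-fold. This evenness depended on the unit. The coefficient of variation in Duroc was 5.08% in TPM and 13.5% in RPM scaled by TMM (reads relative to the library total, with edgeR's factors for library composition), where Duroc libraries 1 to 3 had 141, 178 and 144 RPM. The transcript had 2627 to 3755 estimated reads in Duroc and 279 to 380 in Large white. Duroc library 2, the one least apart from Large white over all transcripts, was here the highest of the 6 libraries in both units, at 11.4 times the Large white mean in TPM.

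ENSSSCT00000080357.1 was the shortest of the 7, with 556 bases, and had the highest Large white level. It had 348, 353 and 567 TPM in Duroc and 41.3, 39.9 and 37.0 TPM in Large white. Duroc library 3 was high and libraries 1 and 2 were alike, whereas in ENSSSCT00000012334.4 library 1 was high. The means were 423 ± 125 and 39.4 ± 2.16 TPM (SD, n = 3 each), a ratio of 10.7, with single libraries 8.43-fold to 15.3-fold apart. Duroc library 2 alone was 8.96 times the Large white mean. Its mean Duroc TPM was the same to 3 digits as that of ENSSSCT00000012334.4, while its Large white mean was several times as high. The estimated reads were 1737 to 2503 in Duroc and 185 to 256 in Large white. For so short a transcript the level rests on an effective length (the part of the transcript on which a fragment can start) of 297 to 302 bases in Duroc and 301 to 309 in Large white, so this correction differed little between the breeds.

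These 3 also held a high rank in the Duroc libraries. ENSSSCT00000012334.4 exceeded 98.2% to 99.4% of the tested transcripts in each Duroc library and 64.2% to 69.1% in each Large white library. ENSSSCT00000080357.1 exceeded 98.7% to 99.4% in Duroc and 86.1% to 87.4% in Large white, so it was among the more abundant transcripts in both breeds. ENSSSCT00000084379.1 exceeded 95.6% to 96.2% and 62.7% to 67.6%. The median level of a tested transcript was 5.23 to 6.87 TPM among Duroc libraries and 5.25 to 5.52 TPM among Large white libraries.

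**Figure D2:**
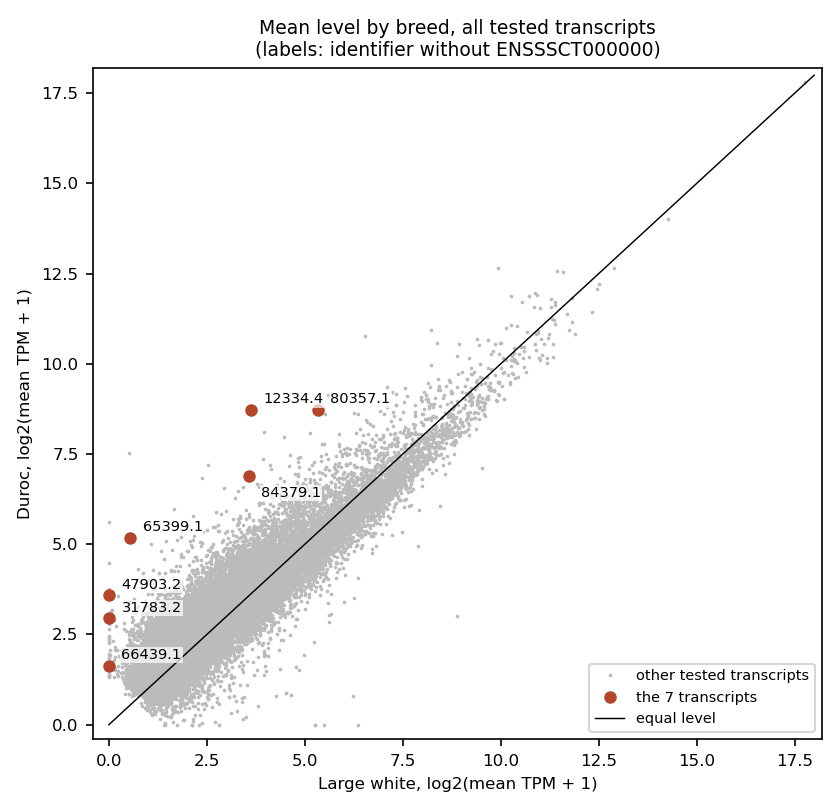
Mean level by breed as log2(mean TPM + 1), Large white on the horizontal and Duroc on the vertical axis, for all 24227 tested transcripts in grey and the 7 transcripts in red, labelled by the end of their identifiers. The line marks equal levels. Of the 7, 3 lie on the left edge, at 0 TPM or close to it in Large white, and all lie above the line.

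Low but readable levels in Large white were found for 1 of the 7, ENSSSCT00000065399.1. It is the longest of the 7, with 5990 bases, and had 50.3, 15.8 and 40.0 TPM in Duroc and 0.693, 0.223 and 0.450 TPM in Large white. Library 2 was the lowest within each breed, and no Large white library came near the Duroc values. The means were 35.4 ± 17.7 and 0.455 ± 0.235 TPM (SD, n = 3 each), a ratio of 77.8. The ratio between 1 Duroc and 1 Large white library ran from 22.9 to 226, the widest such range among the 4 transcripts above the floor in Large white. Both breeds added to it, since the coefficients of variation were 50.0% in Duroc and 51.6% in Large white. Over all tested transcripts the median was 17.0% in Large white, so its Large white libraries differed from each other more than those of most. Its level in Large white rested on 79.8, 24.8 and 42.8 estimated reads, against 1499 to 5841 in Duroc. With Duroc library 2 as the only Duroc library the ratio of TPM was 34.8. Its level exceeded 73.9% to 90.5% of the tested transcripts in Duroc and 1.84% to 4.34% in Large white.

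The remaining 3 transcripts reached 3 estimated reads, the floor under which a transcript was treated as not detected, in no Large white library. ENSSSCT00000047903.2, of 2404 bases, had 8.09, 15.9 and 8.94 TPM in Duroc, from 351, 562 and 281 estimated reads, and 0 reads in each Large white library. Duroc library 2 was the highest, at 1.96 times library 1. A floor of 3 reads corresponds to 0.0694, 0.0719 and 0.0842 TPM for this transcript in Large white libraries 1 to 3. The Duroc mean of 11.0 ± 4.27 TPM (SD, n = 3) was thus at least 146-fold higher, with the floor taken per library. Duroc library 2 alone, the highest Duroc library here, was at least 211-fold higher. The smallest ratio of 1 Duroc library to the floor of 1 Large white library was 96.0.

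ENSSSCT00000031783.2, of 2897 bases, had 8.66, 3.53 and 8.14 TPM in Duroc, from 462, 154 and 314 estimated reads, and 0 reads in each Large white library. Here Duroc library 2 was the lowest, unlike in ENSSSCT00000047903.2. With a floor of 0.0565 to 0.0685 TPM in the Large white libraries, the Duroc mean of 6.78 ± 2.82 TPM (SD, n = 3) was at least 111-fold higher, and Duroc library 2 at least 57.8-fold higher.

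ENSSSCT00000066439.1, of 5341 bases, was the lowest of the 7 in Duroc, with 2.39, 1.45 and 2.49 TPM from 245, 121 and 184 estimated reads. In Large white it had 0 reads in library 1 and 3.59e-06 and 0.000515 estimated reads in libraries 2 and 3. Estimates below 1 read arise where a read can belong to several transcripts. The mean of 2.11 ± 0.572 TPM in Duroc (SD, n = 3) was at least 66.2-fold higher than the floor of 0.0295 to 0.0357 TPM, and Duroc library 2 at least 45.5-fold higher. Its Duroc level exceeded only 17.5% to 22.3% of the tested transcripts, and its place in the comparison rests on Duroc values not far above the filter of 1 TPM.

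The Large white values of the 7 transcripts were exactly 0 reads in 7 of 21 cases and under 3 reads in 9 of 21, and no Duroc value was 0. Absence at this depth means fewer than 3 reads and covers counting error only. It cannot be told from the assignment of all reads to a related transcript. Of the tested transcripts, 58 (0.239%) had under 3 reads in every Large white library and at least 1 TPM in every Duroc library, the 3 described here among them. With the breeds exchanged there were 55 (0.227%). The build named by the submitters corresponds to an assembly made from a Duroc pig, and its part in the read assignment was not tested.

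**Figure D3:**
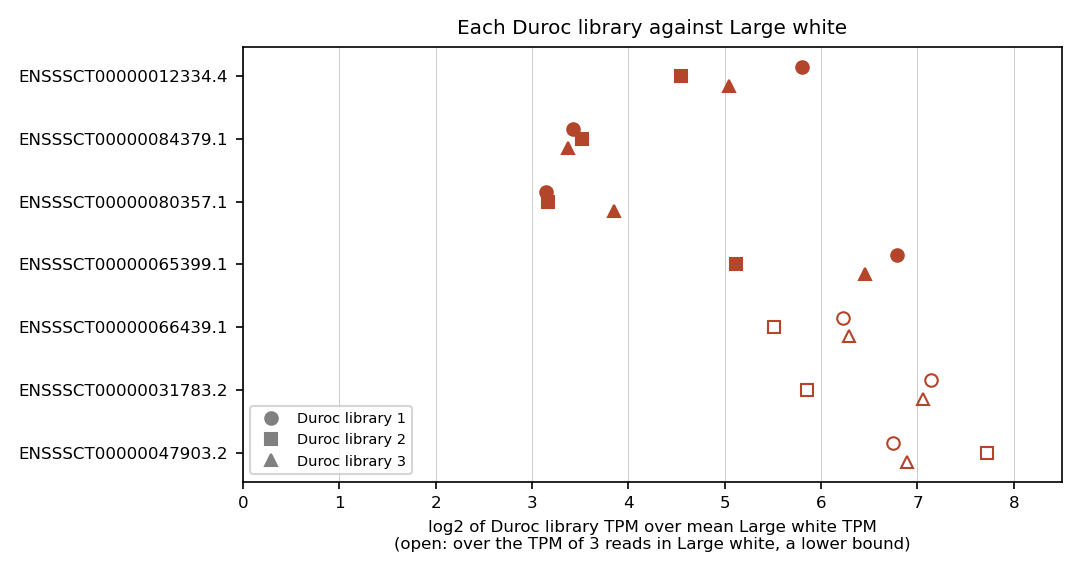
Log2 of the TPM of each Duroc library over the mean Large white TPM (horizontal axis), for each of the 7 transcripts (vertical axis). Open symbols are lower bounds over the TPM of 3 reads. The lowest point is 3.14, for ENSSSCT00000080357.1 in Duroc library 1, and Duroc library 2 is the leftmost point in 4 transcripts.

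The estimated log2 fold changes (Duroc minus Large white) from edgeR's fit over all tested transcripts were 5.12 for ENSSSCT00000012334.4, 3.37 for ENSSSCT00000084379.1, 3.33 for ENSSSCT00000080357.1 and 6.18 for ENSSSCT00000065399.1. With Duroc library 2 as the only Duroc library they were 4.59, 3.57, 3.19 and 5.18 in the same order. For the 3 transcripts under the floor in Large white a fitted value depends on the small count that the fit adds, so bounds are given instead. These were at least 6.05 for ENSSSCT00000066439.1, 6.79 for ENSSSCT00000031783.2 and 7.19 for ENSSSCT00000047903.2. The median over the 7 was 6.18 with fitted values and 6.05 with those 3 at their bounds, beside a median of 0.07 over all tested transcripts.

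Within Duroc the 7 transcripts did not move as 1 group. Duroc library 2 was the lowest of the 3 in ENSSSCT00000012334.4, ENSSSCT00000065399.1, ENSSSCT00000066439.1 and ENSSSCT00000031783.2, which is 4 of 7, beside 48.9% of all tested transcripts. It was the highest in ENSSSCT00000084379.1 and ENSSSCT00000047903.2, beside 36.9% of all tested transcripts. Over the tested transcripts the level in Duroc library 1 was in the median 1.21 times that in library 2, with quartiles of 0.536 and 2.63. ENSSSCT00000065399.1 lay above that range, with a ratio of 3.18, and ENSSSCT00000047903.2 lay below it, with 0.510. The other 5 lay within it, at 2.45 in ENSSSCT00000031783.2, 2.38 in ENSSSCT00000012334.4, 1.64 in ENSSSCT00000066439.1, 0.986 in ENSSSCT00000080357.1 and 0.937 in ENSSSCT00000084379.1. The coefficients of variation in Duroc were 44.3% for ENSSSCT00000012334.4, 29.6% for ENSSSCT00000080357.1, 27.1% for ENSSSCT00000066439.1, 41.6% for ENSSSCT00000031783.2 and 38.9% for ENSSSCT00000047903.2, all below the median of 45.3% over tested transcripts. Only ENSSSCT00000065399.1, with 50.0%, was above that median in TPM. In RPM scaled by TMM, ENSSSCT00000065399.1 had 44.1% and ENSSSCT00000047903.2 had 48.3%, so their order depended on the unit. For TPM in Large white, ENSSSCT00000012334.4 and ENSSSCT00000084379.1 had 15.9% and 14.9%, a little under the median there, and ENSSSCT00000080357.1 had 5.49%.

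**Figure D4:**
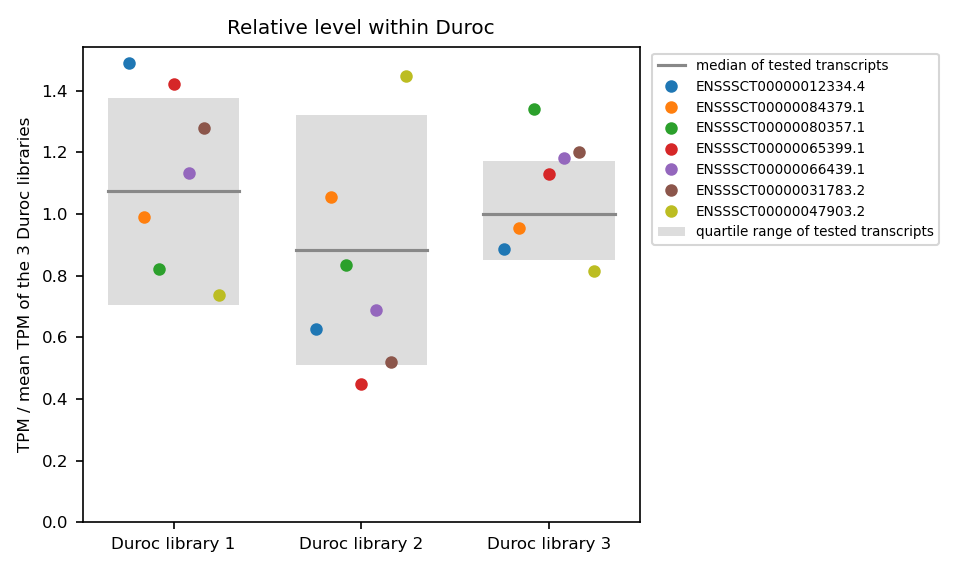
TPM in each Duroc library divided by the mean TPM of the 3 Duroc libraries (vertical axis), with points for the 7 transcripts and grey bars from the lower to the upper quartile of all tested transcripts. In Duroc library 2 the points run from 0.447 for ENSSSCT00000065399.1 to 1.45 for ENSSSCT00000047903.2.

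The likeness of patterns was measured as the root mean square difference of log2(TPM + 1) over the 6 libraries, after each transcript was centred on its own mean. This measure includes the breed difference on which the 7 were chosen. Closeness among them, or distance from other transcripts, is thus not independent of that choice. Among the 7, the closest pairs were ENSSSCT00000084379.1 with ENSSSCT00000047903.2, at 0.29, ENSSSCT00000084379.1 with ENSSSCT00000080357.1, at 0.30, and ENSSSCT00000012334.4 with ENSSSCT00000065399.1, at 0.34. The latter pair shares a large ratio between the breeds and a low Duroc library 2. For both of these the other was the only tested transcript closer than 0.5. The farthest pair was ENSSSCT00000012334.4 with ENSSSCT00000066439.1, at 1.73. Adding 1 to each TPM shrinks the differences of low transcripts, and ENSSSCT00000066439.1 had 1500 tested transcripts closer than 0.5, so closeness to it says little.

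For each of the 7 the nearest tested transcript outside the 7 was found, and the 2 with the smallest differences are given. They were ENSSSCT00000045359.2, at 0.08 from ENSSSCT00000066439.1, and ENSSSCT00000080515.1, at 0.25 from ENSSSCT00000047903.2. ENSSSCT00000045359.2, of 6092 bases, had 2.40, 1.10 and 2.26 TPM in Duroc and 0 reads in each Large white library. ENSSSCT00000080515.1, of 1098 bases, had 5.99, 10.7 and 7.56 TPM in Duroc and 0, 1.89 and 0.904 estimated reads in Large white. As in ENSSSCT00000047903.2, its highest Duroc library was library 2.

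In length, a feature that the breed difference did not use, the 7 were mixed. Their lengths ran from 556 to 5990 bases, and the tested transcripts had a median of 2768 bases with quartiles of 1631 and 4398. ENSSSCT00000080357.1 was longer than 4.69% of the tested transcripts and ENSSSCT00000012334.4 than 12.2%, while ENSSSCT00000066439.1 and ENSSSCT00000065399.1 were longer than 84.2% and 88.8%. The estimated reads of all 7 were fractional (more than 0.001 from a whole number) in every library in which they had at least 3 reads, as in 75% of the tested transcripts. Fractions arise in such estimates where a read is divided between transcripts. The effective length of ENSSSCT00000066439.1 was 17 bases shorter than its length would give in the same library, which was the case, by some number of bases, for 4.78% of the tested transcripts over 1000 bases and for no other of the 7 above that length.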

How the data were processed

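The 7 transcripts and the descriptions were chosen with earlier results of these data known. The submitters' processing notes name susScr11 as build and list Salmon 1.9.0, STAR 2.7.10a and Bowtie 1.3.1. What each tool did, and from which annotation the transcripts came, is not given in the sources used here. Per the file headers, the authors deposited for each RNA library the length, effective length, TPM and an estimated count of reads per transcript. TPM as deposited is relative to all transcripts, and 1 transcript of 144 bases held 19.4% to 24.7% of it.

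Transcripts were matched by exact identifier. The RefSeq table used carries the assembly Sscrofa11.1, and 0 Ensembl transcript identifiers matched it or the table of gene names. Estimated counts were rounded and fitted with edgeR 4.0.16 (quasi-likelihood, TMM, breed as the only term) in R 4.3.3, on transcripts with at least 1 TPM in at least 3 of 6 libraries. This fit gave log2 fold changes, and calls over all transcripts at a Benjamini-Hochberg adjusted threshold of 0.05. It was also run on simulated counts, with the same spread for all transcripts and both breeds. The real Duroc libraries varied more than the Large white libraries, a setting that the simulation did not cover. No test of the 7 is reported. All 7 were named. Of the transcripts that were nearest to each of the 7 from outside them, the 2 closest were also named. Alternatives used total scaling, DESeq2 1.42.0, limma 3.58.1 on log2(TPM + 1), no filter, the replicate number as a block, and left-out libraries.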

Additional observations from a re-analysis of the deposited data

How the results depend on the processing

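In every setting run, each of the 7 transcripts was estimated higher in Duroc. The median log2 fold change of 6.18 was 3.35 with limma on log2(TPM + 1), where 1 added to each TPM lowers the values of transcripts at or near 0, and 5.18 with Duroc library 2 as the only Duroc library. It ran from 5.85 to 6.58 when 1 library was left out, with the same transcripts kept. The count of 7 without overlap held under each scaling. Leaving out a library cannot create an overlap where there was none, so the runs with a library left out could not change this count. The count of 7 over 4-fold was 6 with 1 added to each TPM. No Large white value lay between 0.5 reads and the floor of 3, so that 9 of the 21 values fell under either limit, against 7 at exactly 0. The range over settings was 4.59 to 5.32 for ENSSSCT00000012334.4, 3.24 to 3.57 for ENSSSCT00000084379.1, 3.07 to 3.49 for ENSSSCT00000080357.1 and 4.51 to 6.58 for ENSSSCT00000065399.1. With the replicate block the median log2 fold change was 6.19, and edgeR called 0 of all 24227 tested transcripts, against 9 without the block. It also called 0 with any single Large white library left out, and 7, 8373 and 4 without Duroc library 1, 2 or 3. DESeq2 called 439. Same-numbered libraries of the breeds did not deviate together, with correlations of -0.01, 0.02 and 0.02 across transcripts. The numbers were thus not taken to pair them, and the cause of the differing counts was not tested. Depth limits the 3 transcripts under the floor, for which only lower bounds can be given.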
